A study of Homo sapiens with 55 samples.

Results

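The splicing of 9 genes for RNA-binding proteins was followed across all libraries of the series: HNRNPA1, HNRNPA2B1, HNRNPC, HNRNPD, HNRNPDL, HNRNPH1, HNRNPK, HNRNPR and PTBP1. A splicing event was taken as theirs when it lay on the gene's strand with all its coordinates inside a fixed window around the gene in the human build hg19. This gave 134 of the 110816 events with coordinates: 13 in HNRNPA1, 6 in HNRNPA2B1, 30 in HNRNPC, 9 in HNRNPD, 7 in HNRNPDL, 28 in HNRNPH1, 13 in HNRNPK, 12 in HNRNPR and 16 in PTBP1. A match of intron lengths to the GENCODE 29 annotation gave the same gene name for 131 of the 134. By type, 48 were skipped exons, 30 alternative 3' splice sites, 28 alternative 5' splice sites, 15 retained introns, 11 mutually exclusive exons and 2 tandem 3' UTRs. Several events share a junction, so they are not independent measurements.

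The libraries came from K562, an established leukemia line, and from 293T, a line from embryonic kidney. All of them carried a CRISPR guide, against GPATCH8 (sgGPATCH8), SUGP1 (sgSUGP1) or Renilla luciferase (sgRenilla), which human cells lack and which served as the control. The SF3B1 panel compared K562 cells with and without a knocked-in SF3B1 K700E, with 1 sgRenilla library and 2 libraries for each target in each genotype, 1 per guide. The SRSF2 panel compared K562 cells that overexpress WT SRSF2 or its P95H mutant, and the U2AF1 panel K562 cells that overexpress WT U2AF1 or its S34F mutant, each with sgRenilla or sgGPATCH8 and 3 libraries per group. In both of these panels the WT cells also carry the added factor. The labels list 2 sequencing runs for replicate 3 of the SRSF2 P95H sgGPATCH8 group. It has 1 column for both, so these runs could not be compared. The 293T panel had 2 sgRenilla libraries and 4 for each target, which the column names give as 2 guides with 2 replicates each. The sample labels name WT-1 and WT-2 in place of guides (both sgRenilla samples are WT-1), and nothing ties these names to the guide numbers. The labels do not say that replicates came from separate cultures, so p-values measure the spread between these libraries. The files hold isoform usage and no gene levels, so neither the removal of a guide's target nor markers of a cell line could be checked.

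Heterogeneous nuclear ribonucleoproteins (hnRNPs) coat nascent RNA and help to decide which splice sites are used, often by blocking exons that SR proteins such as SRSF2 promote. PTBP1 is the polypyrimidine tract binding protein, known as a repressor of exons that neurons include. Many of these genes make several protein isoforms, and several use alternative exons in their UTRs or premature stop codons to control the amount of their own transcript.

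The following sequences carry the choices on which the results turn, each read 5′ to 3′ on the gene's strand from GENCODE 29 transcripts of build GRCh38. HNRNPD exon 2 (GRCh38, minus strand, chr4:82371528-82371584) is a coding cassette exon, shown whole because it was the coding exon called in the SRSF2 panel:
HNRNPD exon 2: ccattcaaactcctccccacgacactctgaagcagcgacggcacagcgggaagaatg
Within coding sequence that the annotation draws as part of exon 1, HNRNPD has an event listed as a pair of 3' splice sites 39 nt apart. The upstream one has no annotated junction, and the bases just before it read cc rather than AG. The capitals end in AG, just before the downstream one. Whether the upstream one is a true splice site was not tested (capitals, GRCh38, minus strand, chr4:82373487-82373525):
HNRNPD stretch within exon 1: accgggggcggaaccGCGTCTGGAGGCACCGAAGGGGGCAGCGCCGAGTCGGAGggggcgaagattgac
The next pair shows the best known isoform choices of the core hnRNPs. Exon 2 of HNRNPA2B1 (GRCh38, minus strand, chr7:26197831-26197866) makes the B1 protein when included and A2 when skipped, and the capitals in HNRNPC (GRCh38, minus strand, chr14:21230958-21230996) are the 39 nt that a downstream 5' splice site adds to make C2 rather than C1:
HNRNPA2B1 exon 2: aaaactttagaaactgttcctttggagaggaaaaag
HNRNPC end of the C2 exon: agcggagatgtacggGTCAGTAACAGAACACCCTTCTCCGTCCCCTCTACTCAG
Exon 9 of PTBP1 (GRCh38, plus strand, chr19:805492-805569) codes for part of the linker between RNA-binding domains, and the capitals mark the 21 nt that a downstream 3' splice site leaves out:
PTBP1 exon 9: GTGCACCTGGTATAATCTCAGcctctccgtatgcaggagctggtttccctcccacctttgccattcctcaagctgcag

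SRSF2 is known to bind CCNG and GGNG, and these were counted in 2 of the called cassette exons on the sense strand only, with overlapping matches allowed. HNRNPD exon 2 held neither motif; among the 820 exons of 57 nt, 59% held a CCNG and 53% a GGNG. The HNRNPDL exon described below held 3 CCNG and 2 GGNG, and of the 1627 exons of 105 nt, 35.1% held at least as many CCNG and 47% at least as many GGNG. The called HNRNPA2B1 and HNRNPC exons were not searched. These are counts of letters and show no binding.

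Usage is the share, in percent, of the isoform listed first for an event. That isoform includes the exon of a skipped-exon event, has the longer exon of an alternative 5' site, the upstream site of an alternative 3' site, the upstream of 2 exclusive exons and the shorter of 2 UTRs. For a retained intron it is the spliced form: in 6080 of 6084 such events the first isoform has the junction across the intron and the second the contiguous boundary, and the median usage was 81.4%. In all 2652 tandem UTR events the first isoform was the shorter. Over the 44 libraries, 30 of the 134 events were above 95% in every library with a value, 28 were below 5% and 76 were in neither class. An event was tested where every library of the panel had a value, the highest group mean reached 5% and the lowest did not exceed 95%. Of the 134, this left 67 for SF3B1, 61 for SRSF2, 59 for U2AF1 and 59 for 293T. It was called where limma's Benjamini-Hochberg adjusted p, over all tested events of the panel, was below 0.05 and group means differed by at least 5 points.

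Libraries of 2 panels stood apart in ways the groups do not explain. In the U2AF1 panel, replicate 1 lay above both others or below both others, the same way in all 4 groups, in 21 of 59 tested events of the 9 genes (12 above, 9 below) and in 16.3% of all tested events, against 2.21% for replicate 2 and 2.24% for replicate 3. In the SF3B1 panel each library has 2 sequencing runs, which were averaged, and the runs were the leading difference between columns. On the first principal component (18.4% of the variance of 39449 events), all 10 first runs lay between −7.92 and −2.98. Of the second runs, 8 lay between 6.1 and 11.1, but those of both K700E sgSUGP1 libraries were at −6.77 and −6.29, among the first runs. Differences in this panel are therefore given with their values in each run where these depart from the average; the part of the run in them was not tested.

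HNRNPA2B1 and HNRNPC, both of the core particle, had their classical choices at intermediate usage in every panel. Exon 2 of HNRNPA2B1, the B1 form, was included in 24% in the 1 WT sgRenilla library of the SF3B1 panel and in 14%, 15% and 15% in the SRSF2 panel. The corresponding U2AF1 libraries had 27%, 16% and 16%, and the 293T libraries 25% and 25%. The U2AF1 value of 27% is replicate 1, and the same library number gave 25%, 27% and 25% in the other 3 groups, against 17% to 20% in replicates 2 and 3. The C2 form of HNRNPC was at 29% in SF3B1, at 28%, 28% and 29% in SRSF2, at 39%, 39% and 38% in U2AF1 and at 34% and 32% in 293T libraries. Panels are in separate tables and may have been made apart, and levels across them are given only side by side.

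HNRNPA1 exon 7B, which lengthens the glycine-rich tail into the A1-B form, was a minor choice: its highest inclusion in these WT sgRenilla libraries was 7%, in all 3 of the SRSF2 panel. HNRNPD, the AU-rich element binding protein AUF1, has exons 2 and 7, whose combinations give its p37, p40, p42 and p45 forms. Exon 2 was included in 84.5% in SF3B1, in 72%, 72% and 72% in SRSF2, in 88%, 84% and 85% in U2AF1 and in 83% and 80% in 293T libraries. Exon 7 was near even usage, at 49% in SF3B1, at 48%, 49% and 46% in SRSF2 and at 51% and 50% in 293T libraries. Among U2AF1 libraries it was 47% in replicate 1 and 58% in both other replicates. The last alternative coding exon of HNRNPDL, a relative of HNRNPD, was at 96.5% to 99% in all WT sgRenilla libraries.

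PTBP1 exon 9 was mostly included in its 78-nt form, at 76.5% in SF3B1, at 58%, 62% and 58% in SRSF2, at 71%, 62% and 63% in U2AF1 and at 76% and 72% in 293T libraries. The 57-nt form against skipping was at 17% in SF3B1, at 15%, 19% and 20% in SRSF2, at 23%, 15% and 15% in U2AF1 and at 24% and 29% in 293T libraries. Its SF3B1 value is the average of runs that differed widely, as given below for that panel. Exon 11, whose skipping shifts the frame and which PTBP1 protein is known to skip in its own transcript, was at 96% or more in all of these libraries. The events nearest to even usage in the other genes varied little between WT sgRenilla libraries. In HNRNPH1, which binds runs of G, the upstream of a pair of exclusive exons was at 47% to 51%. In HNRNPR, a relative of SYNCRIP, the upstream of a pair of exclusive exons was at 39% to 46%. These shares count only forms with 1 exon of the pair. Scored as a skipped exon on the same junctions, the upstream exon was mostly included. Its WT sgRenilla means by panel were 96.7% to 98.7% in HNRNPH1 and 90.3% to 93.5% in HNRNPR. In HNRNPK, which binds runs of C, the upstream of a pair of 3' sites 60 nt apart at the end of the coding sequence was at 53% to 61%.

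The 3' UTR exon of HNRNPDL had the widest spread of WT sgRenilla levels between panels, with means of 7% in 293T, 8.5% in SF3B1, 11.7% in U2AF1 and 31.3% in SRSF2 libraries. The next widest, chosen after their values were seen, were a PTBP1 3' site 20 nt apart (means of 74% in SF3B1 and 95.7% in U2AF1 libraries) and a 101-nt HNRNPH1 intron, spliced in 64% of U2AF1 and 84% of 293T libraries on average.

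**Figure D1:**
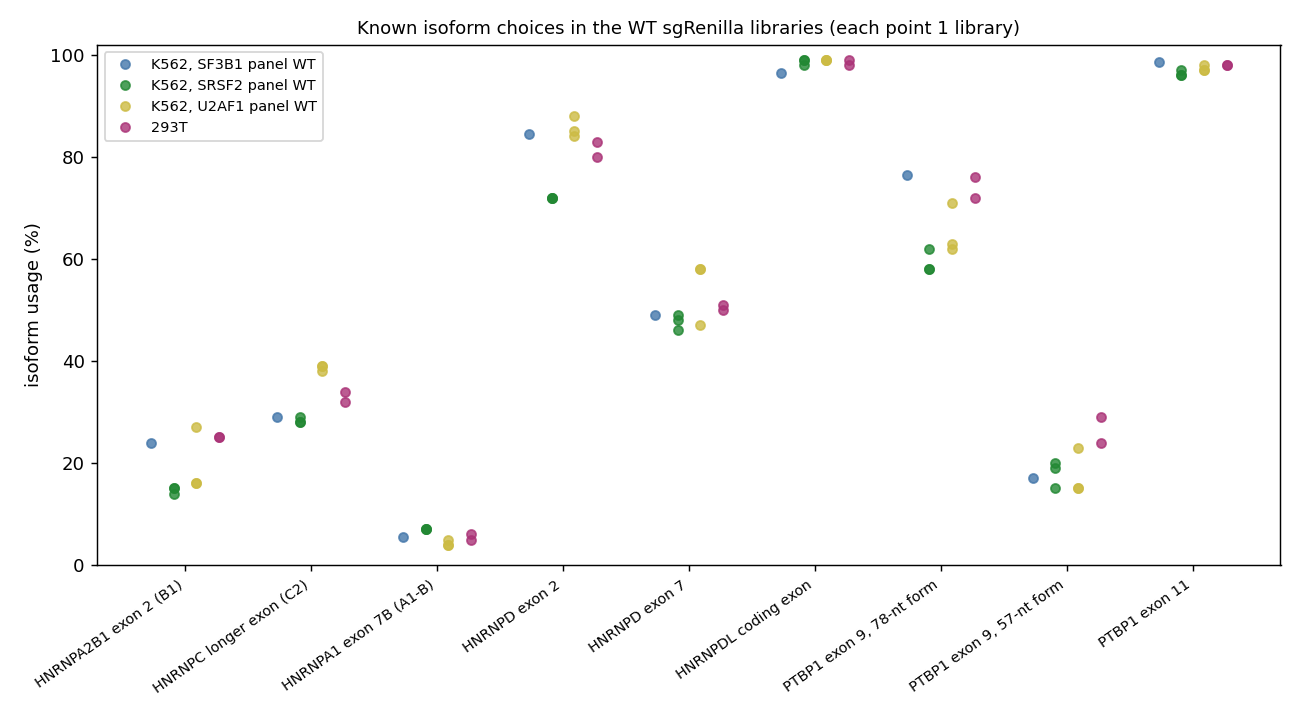
Usage in percent (vertical axis) of 9 known isoform choices (horizontal axis) in the WT sgRenilla libraries of the 4 panels, 1 point per library. HNRNPA1 exon 7B is at 7% or less and PTBP1 exon 11 at 96% or more throughout, while 1 U2AF1 library is apart at HNRNPA2B1 exon 2 (27%) and HNRNPD exon 7 (47%).

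SRSF2, an SR protein, promotes exons through the motifs named above, and P95H is its common mutation in myeloid disease. With sgRenilla, 2 of the 61 tested events were called between P95H and WT, both lower with P95H, against 1.08% of all tested events (17 of the 61 had an unadjusted p below 0.05, which is 27.9%, beside 14.4% of all tested events). With sgGPATCH8, 8 of the 61 were called (2 rose, 6 fell), against 4.06% of all tested events, and 24 had an unadjusted p below 0.05, which is 39.3%, beside 20.2% of all. The 2 comparisons use different libraries of the same panel. The median absolute difference of the 61 events was 2 points with sgRenilla and 2.33 with sgGPATCH8, beside 2.67 and 3 over all tested events.

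In HNRNPA1 the call lay at the end of exon 7B (hg19, chromosome 12), where a 5' splice site 3 nt further in was used in place of the outer one. The longer form was used in 83%, 82% and 84% of the WT sgRenilla libraries' exon 7B transcripts and in 67%, 67% and 64% with P95H. The fall was 17 points (log2 ratio −1.29 ± 0.14 SE, limma adjusted p 0.00557). With sgGPATCH8 it was 80%, 80% and 80% in WT and 64%, 66% and 66% in P95H cells, a fall of 14.7 points (limma adjusted p 0.00436). WT and P95H libraries did not overlap under either guide. Exon 7B itself was included in 7%, 7% and 7% with WT and 4%, 4% and 4% with P95H under sgRenilla, a difference of 3 points that has limma adjusted p 0.0285 but is below the 5 points that a call needs. Usage of the 5' sites thus rests on the few transcripts that include the exon, at a depth that is unknown.

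HNRNPD had the most calls, at 3 of its 6 tested events. The first was a 5' splice site 36 nt apart in an exon downstream of exon 7 that the annotation has in noncoding transcripts and in targets of nonsense-mediated decay (chromosome 4, 83275307 to 83276084, minus strand, hg19). The longer form of this exon was used in 16%, 15% and 13% of WT sgRenilla and 5%, 4% and 5% of P95H sgRenilla libraries, a fall of 10 points (log2 ratio −1.63 ± 0.17 SE, limma adjusted p 0.00557). With sgGPATCH8 it was 10%, 10% and 11% in WT and 2%, 3% and 3% in P95H, a fall of 7.67 points (limma adjusted p 0.00126). Inclusion of the whole 107-nt exon (the ninth HNRNPD event) was lower too, by less than 5 points, 3.33 with sgRenilla (limma adjusted p 0.0197) and 2 with sgGPATCH8 (limma adjusted p 0.0187), and shares a junction with it. That inclusion averaged only 5% in the WT sgRenilla libraries of this panel. Usage of the 5' site thus rests on the few transcripts that include the exon, at a depth that is unknown.

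HNRNPD exon 2, the 57-nt coding exon printed above, went the other way. It was included in 72%, 72% and 72% of WT and 79%, 78% and 79% of P95H sgRenilla libraries, which is 6.67 points more and was not called (limma adjusted p 0.111). With sgGPATCH8 it was 70%, 68% and 71% in WT and 82%, 81% and 81% in P95H, a rise of 11.7 points (log2 ratio 0.89 ± 0.13 SE, limma adjusted p 0.00800). The upstream 3' site within exon 1 was used in 28%, 37% and 33% of WT and 18%, 19% and 19% of P95H libraries with sgGPATCH8, a fall of 14 points (log2 ratio −1.04 ± 0.17 SE, limma adjusted p 0.00974). With sgRenilla its values were 32%, 27% and 29% in WT and 23%, 25% and 22% in P95H, with no call. As printed above, no AG precedes this upstream site, and whether it is a true splice site was not tested. Exon 7 was at 48%, 49% and 46% with WT and 50%, 50% and 50% with P95H under sgRenilla, and was not called in this panel.

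HNRNPDL, whose transcript is known to carry exons in its 3' UTR that mark it for decay, showed the largest fall of the 61 events with P95H under sgGPATCH8. The event is a 105-nt exon in the 3' UTR (chromosome 4, 83346036 to 83347190, minus strand, hg19). It was included in 32%, 33% and 29% of WT sgRenilla libraries, 26%, 25% and 26% of WT sgGPATCH8, 23%, 24% and 24% of P95H sgRenilla and 9%, 9% and 10% of P95H sgGPATCH8 libraries. No 2 of these 4 groups overlap. P95H against WT fell by 16.3 points with sgGPATCH8 (log2 ratio −1.65 ± 0.12 SE, limma adjusted p 0.000377) and by 7.67 points with sgRenilla, which was not called (limma adjusted p 0.0655). That difference passed on untransformed fractions (limma adjusted p 0.0281) and without limits on group means (limma adjusted p 0.0255).

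The 3' UTR of HNRNPA2B1 held 2 further calls in P95H against WT with sgGPATCH8, which share a junction and a 136-nt exon (chromosome 7, 26230080 to 26232115, minus strand, hg19). Inclusion of the exon was 14%, 15% and 13% in WT and 7%, 8% and 9% in P95H, a fall of 6 points (limma adjusted p 0.0102). The exon has a pair of 5' splice sites 63 nt apart, of which the outer one gives the longer, 136-nt form. That form was used in 21%, 24% and 20% of WT and 12%, 12% and 14% of P95H libraries, a fall of 9 points (limma adjusted p 0.00915). With sgRenilla the same differences were 4.33 points (limma adjusted p 0.0903) and 6 points (limma adjusted p 0.0991) lower with P95H, neither called. Exon 2 of the same gene was not called.

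In HNRNPC a 26-nt exon of the 5' UTR (chromosome 14, 21702388 to 21737457, minus strand, hg19) was included in 77%, 78% and 77% of WT and 84%, 85% and 84% of P95H libraries with sgGPATCH8, 7 points more (log2 ratio 0.63 ± 0.14 SE, limma adjusted p 0.0342). This call was the least stable: it was lost on leaving out any 1 of the 6 libraries (limma adjusted p 0.078 to 0.0994), though the difference stayed between 6.67 and 7.33 points. The tested events of HNRNPH1 (17), HNRNPK (4), HNRNPR (7) and PTBP1 (7) held no call in this panel.

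**Figure D2:**
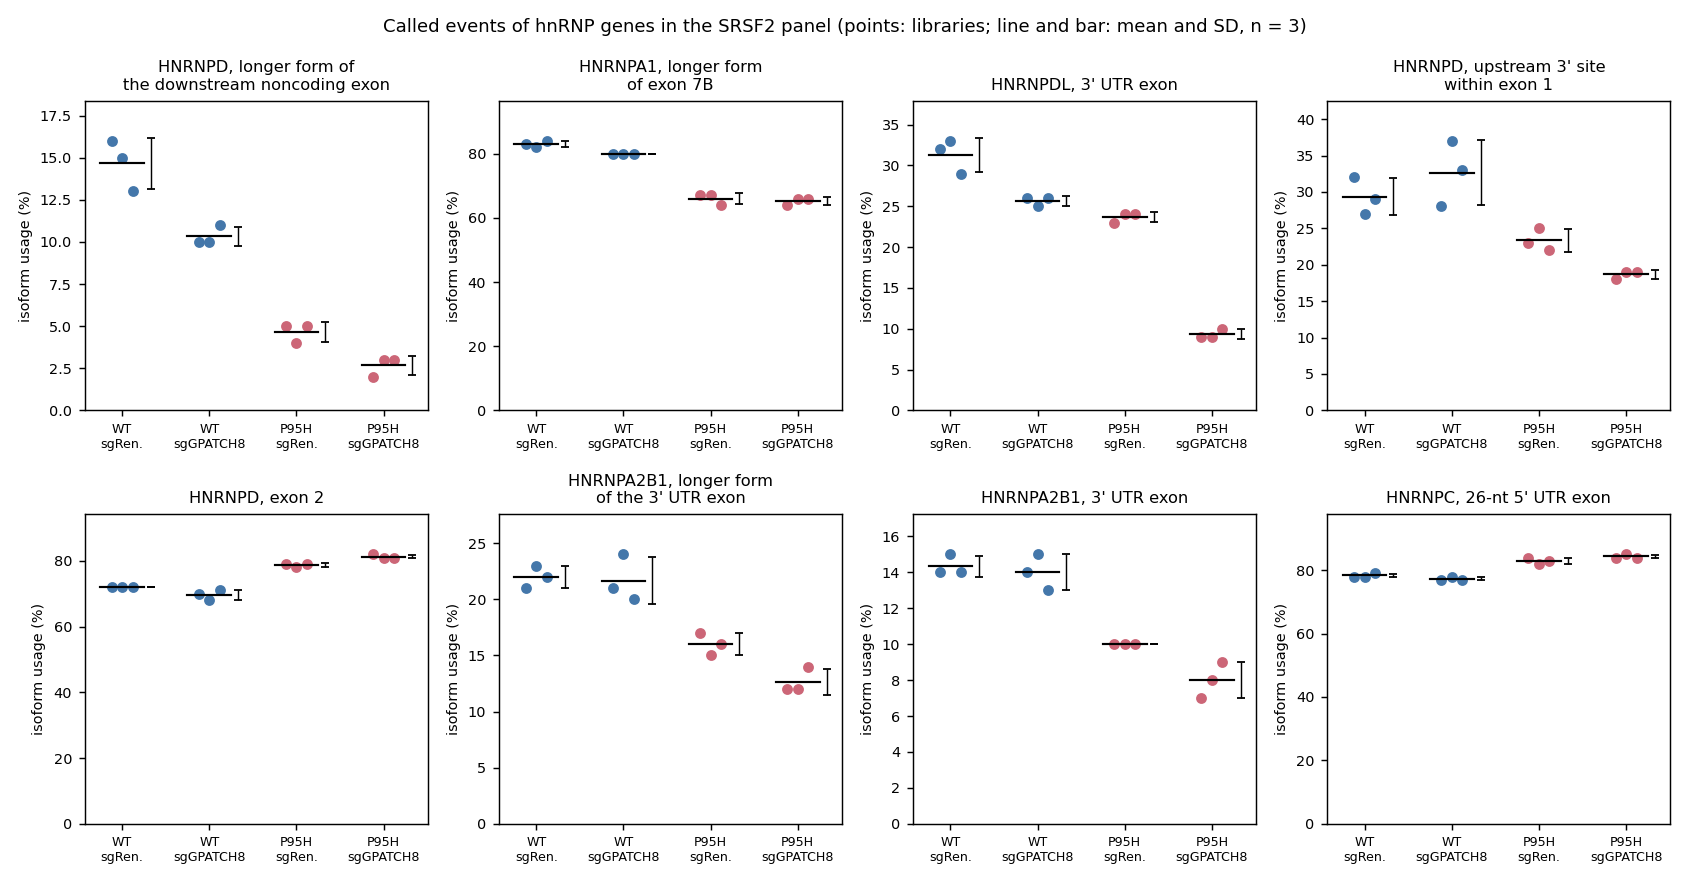
Isoform usage in percent (vertical axes, each from 0) of the 8 events called in the SRSF2 panel, in its 4 groups (WT blue, P95H red). Points are libraries, the line is the mean and the bar the SD (n = 3); the HNRNPDL exon is lowest in P95H sgGPATCH8 libraries (9% to 10%) and the HNRNPA1 site differs by genotype under both guides.

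Between sgGPATCH8 and sgRenilla, 1 of the 61 events was called in P95H cells, against 4.84% of all tested events there, while 17 had an unadjusted p below 0.05 (27.9%, beside 21.1% of all). It was the HNRNPDL 3' UTR exon, which fell by 14.3 points from the P95H sgRenilla values given above (limma adjusted p 0.00018). In WT SRSF2 cells 0 of 61 were called, against 0.491% of all tested events, and 8 had an unadjusted p below 0.05 (13.1%, beside 11.2% of all). The HNRNPDL exon had the lowest p there too, with a difference of −5.67 points (limma adjusted p 0.238). The test of the difference between these effects of sgGPATCH8 called 0 of 61, against 0.0614% of all tested events, with 8 at an unadjusted p below 0.05 (13.1%, beside 11.9% of all). For the HNRNPDL exon that difference was −8.67 points (limma adjusted p 0.0558). It passed only when the limits on group means were dropped (limma adjusted p 0.00483).

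The differences in the choice between C1 and C2 of HNRNPC had opposite signs in the 2 genotypes, without a call. C2 was at 28%, 28% and 29% in WT sgRenilla and 24%, 24% and 24% in WT sgGPATCH8 libraries, and at 26%, 27% and 26% in P95H sgRenilla and 30%, 29% and 29% in P95H sgGPATCH8 libraries. The groups within each genotype do not overlap, and the difference between the effects was 7.33 points (limma adjusted p 0.203). HNRNPA2B1 exon 2 was included in 13%, 12% and 12% of P95H sgRenilla and 16%, 16% and 16% of P95H sgGPATCH8 libraries (limma adjusted p 0.0687). PTBP1 exon 9 in its 78-nt form was at 54%, 55% and 55% in P95H sgRenilla and 62%, 64% and 62% in P95H sgGPATCH8 libraries, 8 points more (limma adjusted p 0.087).

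The levels of the called events in the other panels are given beside them as a description. The longer form of the HNRNPD exon downstream of exon 7, at 13% to 16% in SRSF2 WT sgRenilla libraries, was at 2% to 9.5% in every library of the other panels. HNRNPD exon 2 was at 79% to 88% in those libraries, within or above the range of the P95H libraries. In the U2AF1 panel it was 88%, 84% and 85% with WT and 83%, 79% and 82% with S34F under sgRenilla, without overlap and with no call (limma adjusted p 0.696).

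**Figure D3:**
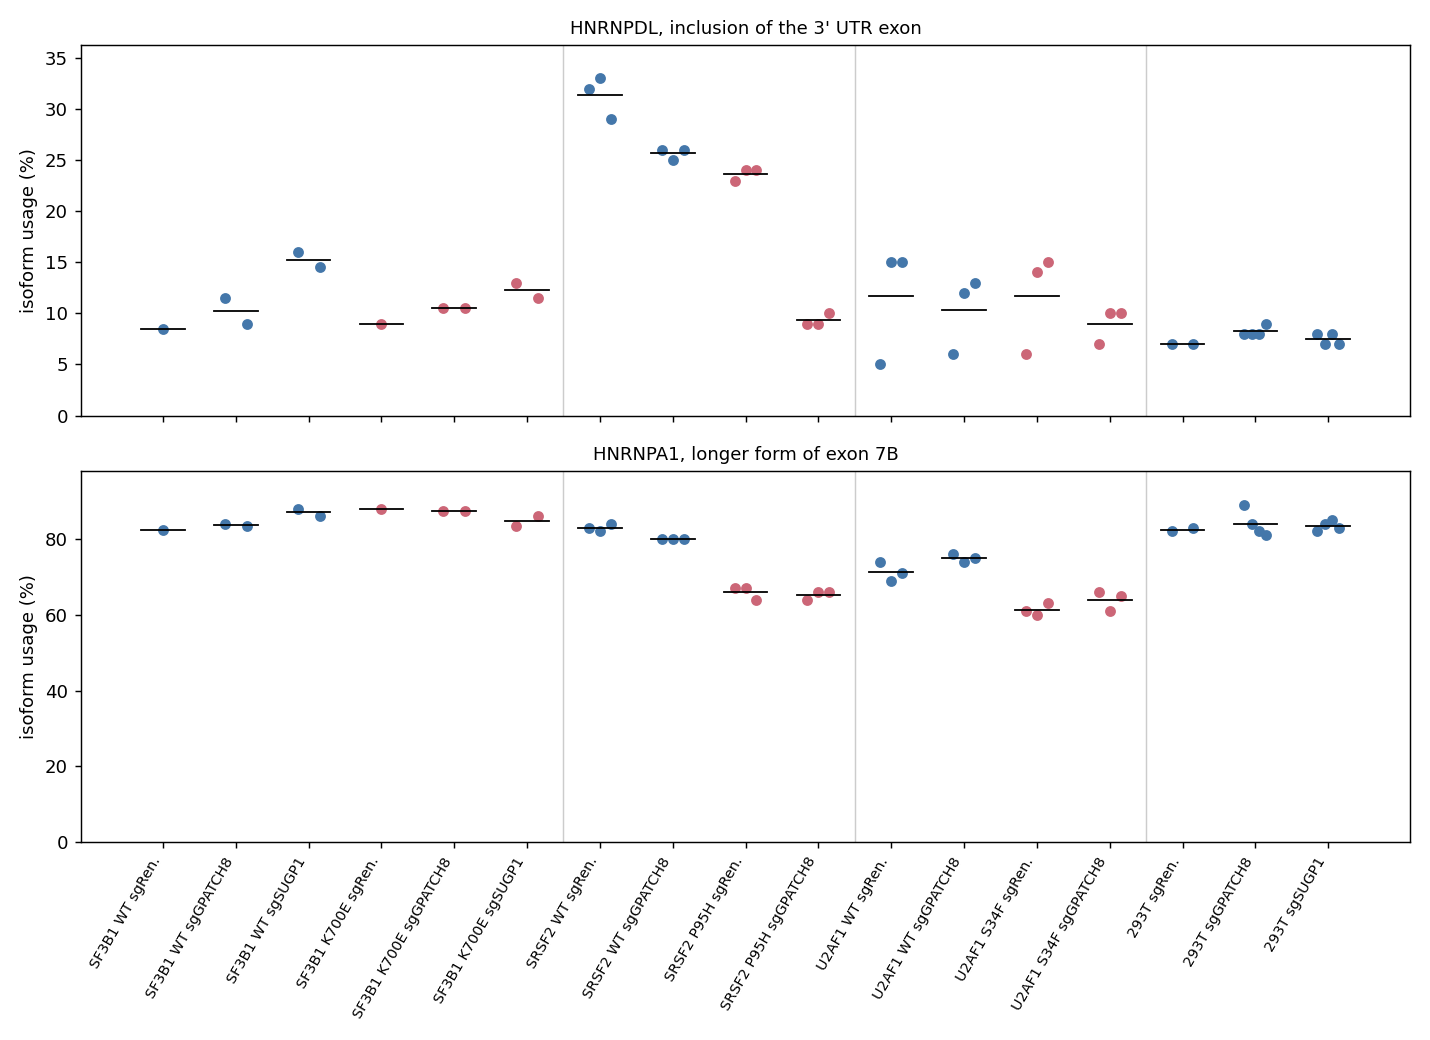
Usage in percent (vertical axes from 0) of the HNRNPDL 3' UTR exon and of the longer form of HNRNPA1 exon 7B in all 17 groups (horizontal axis; vertical lines part the panels). Points are libraries (red: mutant, blue: the rest) and lines are group means; the HNRNPDL exon exceeds 20% in 3 of the 4 SRSF2 groups and in no library of another panel.

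U2AF1 is the U2AF subunit that reads the AG at 3' splice sites, and S34F lies in 1 of its zinc fingers. No event of the 9 genes was called in this panel. Of 59 tested events, limma called 0 between S34F and WT with sgRenilla (0.0023% of all tested events were called) and 0 with sgGPATCH8 (0.023%), with 8 and 6 at an unadjusted p below 0.05 (13.6% and 10.2%, beside 9.32% and 11.6% of all). Between sgGPATCH8 and sgRenilla it called 0 in WT cells (0.0322% of all) and 0 in S34F cells (0.0345% of all), with 0 and 3 at an unadjusted p below 0.05 (0% and 5.08%, beside 4.87% and 6.99% of all). The test of the difference between these effects called 0 (0% of all), with 0 at an unadjusted p below 0.05 (beside 4.4% of all). The events with the lowest p are given as values, since none passed.

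PTBP1 exon 9 had the lowest p between S34F and WT with sgRenilla. Its 78-nt form was at 71%, 62% and 63% in WT sgRenilla, 72%, 61% and 64% in WT sgGPATCH8, 56%, 43% and 42% in S34F sgRenilla and 59%, 64% and 65% in S34F sgGPATCH8 libraries. The S34F sgRenilla libraries were below all others of the panel. They were 18.3 points below WT sgRenilla (log2 ratio −1.07 ± 0.31 SE, limma adjusted p 0.265) and 15.7 points below S34F sgGPATCH8 (limma adjusted p 0.545). Replicate 1 was highest in 3 groups and lowest in the S34F sgGPATCH8 group. Without replicate 1 in all 4 groups, a setting chosen after the values were seen, the differences were 20 points (limma adjusted p 0.26) and 22 points (limma adjusted p 0.221) in the same directions. The 3' site of the exon, 21 nt apart, was used at its upstream position in 92%, 92% and 89% of S34F sgRenilla libraries and in 93% to 98% of the libraries of the other 3 groups.

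The 5' site of HNRNPA1 exon 7B had the lowest p between S34F and WT with sgGPATCH8, at 76%, 74% and 75% in WT and 66%, 61% and 65% in S34F libraries (11 points lower, limma adjusted p 0.23). With sgRenilla it was 74%, 69% and 71% in WT and 61%, 60% and 63% in S34F libraries, 10 points lower (limma adjusted p 0.375). The mutant libraries were below the WT libraries under both guides, as in the SRSF2 panel, but without a call here. Such separation was not confined to this event. Of 59 tested events, 6 lay wholly above and 8 wholly below WT in S34F libraries with sgRenilla, and 7 and 5 with sgGPATCH8. The share over all tested events was not computed. The C2 form of HNRNPC was at 40%, 39% and 38% in S34F sgRenilla and 30%, 32% and 32% in S34F sgGPATCH8 libraries (7.67 points lower, limma adjusted p 0.603). The HNRNPK 3' site, at 54%, 55% and 53% in WT and 62%, 63% and 64% in S34F sgRenilla libraries, did not overlap either (limma adjusted p 0.425). The 26-nt HNRNPC 5' UTR exon was at 83%, 79% and 77% in WT and 89%, 86% and 87% in S34F sgRenilla libraries, also without overlap and with no call (limma adjusted p 0.405). The HNRNPD exon with a 36-nt alternative 5' site had the lowest p for sgGPATCH8 in WT cells, with its longer form at 5%, 7% and 8% with sgRenilla and 4%, 5% and 4% with sgGPATCH8 (limma adjusted p 1).

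SF3B1 is the U2 snRNP subunit at the branch point, and K700E is known for cryptic upstream 3' splice sites. No event of the 9 genes was called in this panel as the runs were averaged. Between K700E and WT, averaged over the 3 guide targets, limma called 0 of 67 events, against 3.35% of all tested events, and 7 had an unadjusted p below 0.05, which is 10.4%, beside 22.6% of all. With sgRenilla alone, 1 library against 1, it called 0 of 67 (0% of all), with 3 at an unadjusted p below 0.05 (4.48%, beside 13% of all). For sgSUGP1 against sgRenilla it called 0 in WT (0.0197% of all) and 0 in K700E cells (0.0944% of all), with 5 and 9 at an unadjusted p below 0.05 (7.46% and 13.4%, beside 8.63% and 11.7% of all). For sgGPATCH8 it called 0 in WT (0.0059% of all) and 0 in K700E cells (0.0138% of all), with 1 and 2 at an unadjusted p below 0.05 (1.49% and 2.99%, beside 9.46% and 10.5% of all). All comparisons of 1 genotype share its 1 sgRenilla library.

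The event with the lowest p for sgSUGP1 in K700E cells moved with the sequencing run. The upstream of a pair of 3' sites 40 nt apart in the HNRNPD 5' UTR was used in 45% of the K700E sgRenilla library and in 19% and 19% of the K700E sgSUGP1 libraries (26 points lower, limma adjusted p 0.0988). In run 1 the values were 26%, against 25% and 21%, and in run 2 they were 64%, against 13% and 17%. The other libraries were at 24% to 34% in run 1 and at 39% to 58% in run 2. The difference was thus 3 points in run 1 (limma adjusted p 0.937) and 49 points in run 2 (limma adjusted p 0.023), where the K700E sgSUGP1 columns resembled first runs.

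The 57-nt form of PTBP1 exon 9 had the same pattern, and the lowest p for K700E averaged over the targets (5.08 points lower, limma adjusted p 0.0706). It was at 7% to 14% in all 10 first runs, at 26% to 35% in 8 second runs and at 5% and 9% in the second runs of K700E sgSUGP1. In run 1 alone the averaged difference was 1.83 points (limma adjusted p 0.624). The shorter 3' UTR of PTBP1, an event with the lowest p for K700E with sgRenilla and for sgGPATCH8 in WT cells, was at 0% and 15% in the 2 runs of WT sgRenilla and at 7% and 47% in those of K700E sgRenilla. Its WT sgGPATCH8 runs were at 15% and 36% for the first guide and 15% and 43% for the second. In each of these 4 libraries run 2 was far above run 1, and neither difference was called (limma adjusted p 0.231 and 0.287).

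The upstream exon of the HNRNPR pair above, scored against a junction that skips both exons of the pair, had the lowest p for sgGPATCH8 in K700E cells. It was at 95.5% with sgRenilla and 87% and 89% with sgGPATCH8 (limma adjusted p 0.216). It was 2.5 points lower in run 1 and 12.5 points lower in run 2. The HNRNPDL 3' UTR exon was at 8.5% in WT sgRenilla and 16% and 14.5% in WT sgSUGP1 libraries, 6.75 points more (limma adjusted p 0.422) and about the same in run 1 (6.5 points) and run 2 (7 points). The HNRNPA2B1 exon 2 share stayed between 19.5% and 24% over all 10 libraries, and the C2 share of HNRNPC between 25% and 30%.

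**Figure D4:**
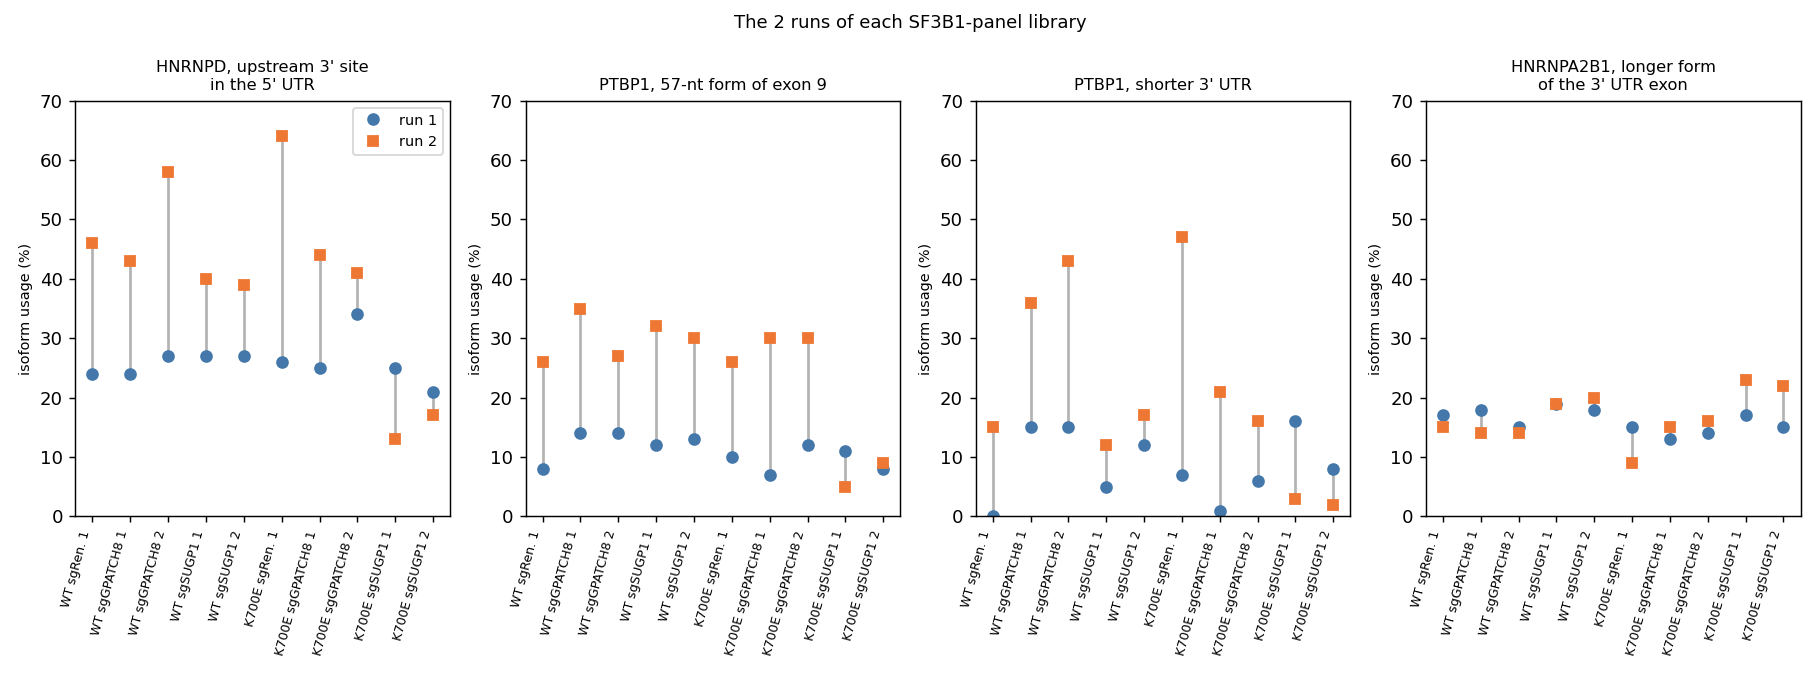
Isoform usage in percent (vertical axes, 0 to 70) in run 1 (circles) and run 2 (squares) of the 10 SF3B1-panel libraries (horizontal axis), for 4 events of HNRNPD, PTBP1 and HNRNPA2B1. In the 57-nt form of PTBP1 exon 9, second runs are at 26% to 35% except those of K700E sgSUGP1, at 5% and 9%.

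In 293T cells, limma called 0 of 59 events for sgGPATCH8 (0.0731% of all tested events were called) and 0 of 59 for sgSUGP1 (0.0452%), and 0 had an unadjusted p below 0.05 in either comparison, beside 8.34% and 7.53% of all tested events. Both comparisons share the 2 sgRenilla libraries, and the spread behind their p-values is that between replicates of 1 guide. Exon 2 of HNRNPA2B1 was at 25% and 25% with sgRenilla and at 20%, 21%, 20% and 21% with sgGPATCH8. These groups do not overlap (4.5 points lower, limma adjusted p 0.65). The C2 form of HNRNPC was at 34% and 32% with sgRenilla and 36%, 36%, 36% and 38% with sgSUGP1. The HNRNPDL 3' UTR exon was at 7% and 7% with sgRenilla and 8%, 8%, 8% and 9% with sgGPATCH8. The lowest p for sgGPATCH8 was that of a pair of HNRNPC 3' sites 3 nt apart, whose upstream site was at 87% and 89% with sgRenilla and at 91% to 96% with sgGPATCH8 (limma adjusted p 0.604). For sgSUGP1 it was that of a pair of exclusive exons in the HNRNPC 5' UTR, at 4% and 4% with sgRenilla and 6% in all 4 sgSUGP1 libraries (limma adjusted p 0.681).

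**Figure D5:**
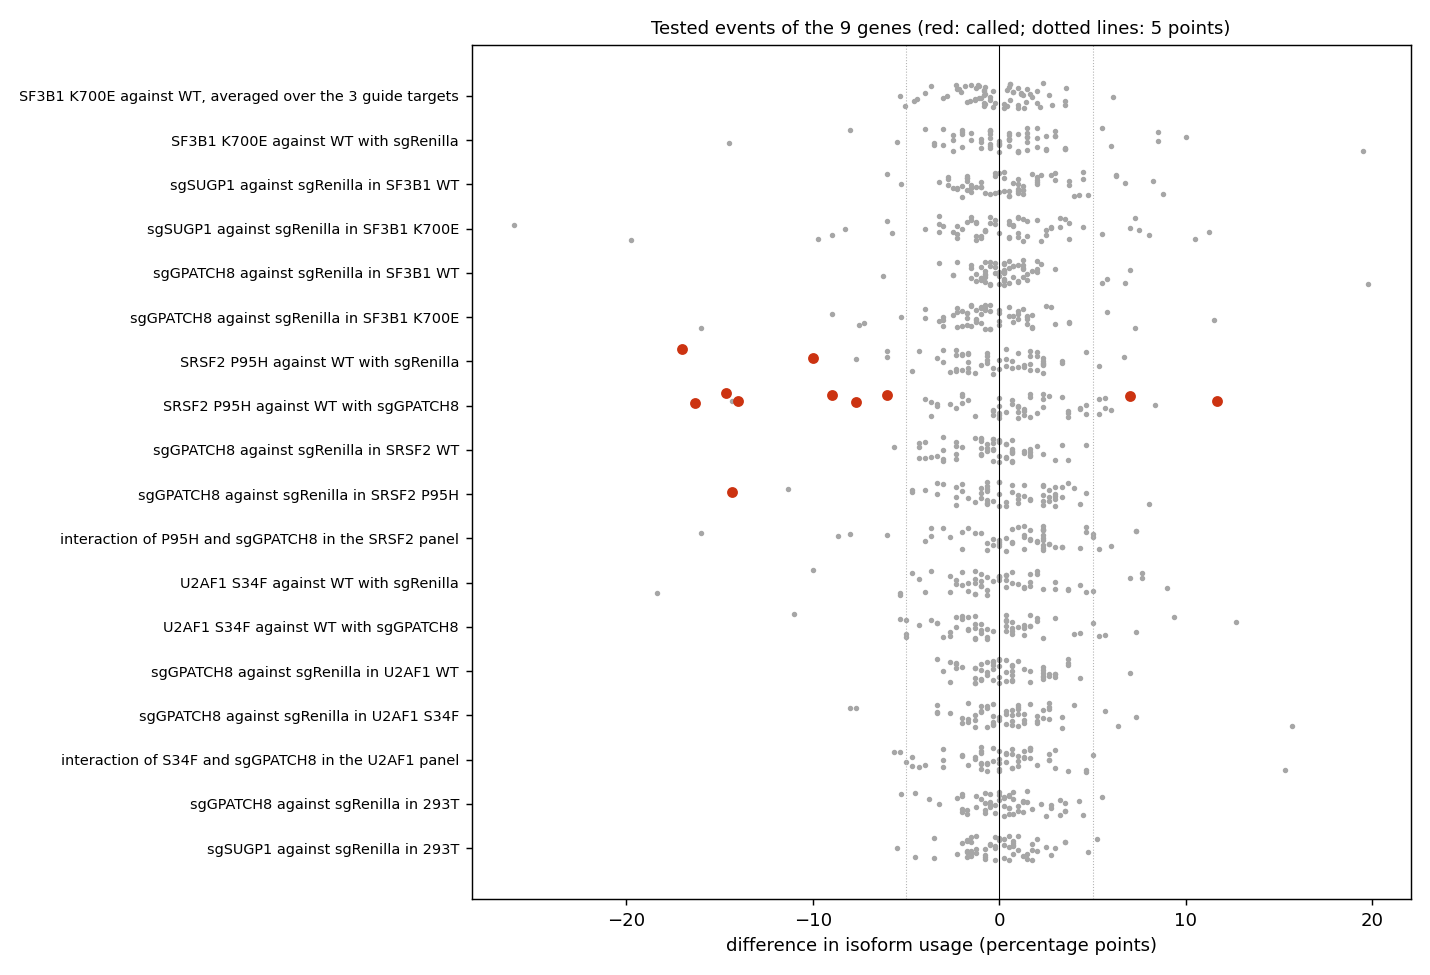
Difference of group means in percentage points (horizontal axis) for every tested event of the 9 genes in the 18 comparisons (rows); red points are called and dotted lines mark 5 points. The red points lie in 3 SRSF2 comparisons (2, 8 and 1 events), and wide grey points in the SF3B1 rows include events whose runs differ.

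Of 22 further genes of the family and its relatives, a list drawn up for this work, 20 had events (145 in all). In P95H against WT, 2 of 60 tested events were called with sgRenilla (2 rose; 3.33%, against 1.08% of all tested events) and 3 of 60 with sgGPATCH8 (1 rose, 2 fell; 5%, against 4.06% of all). For sgGPATCH8 in P95H cells, 3 of 60 were called (3 fell; 5%, against 4.84% of all). The last 2 shares are near those of all events, so the genes below are single calls. RALY, an hnRNP C relative, used the upstream of a pair of exclusive exons in 60.7% with WT and 78.3% with P95H (sgRenilla means, limma adjusted p 0.0197), and in 68.7% and 82.3% with sgGPATCH8 (limma adjusted p 0.015). An intron of HNRNPM was spliced in 40.3% with WT and 54% with P95H under sgRenilla (limma adjusted p 0.0197), and fell to 39.7% with sgGPATCH8 in P95H cells (limma adjusted p 0.00529). An exon of HNRNPLL, a relative of HNRNPL, fell from 9% to 3.67% with sgGPATCH8 in P95H cells (limma adjusted p 0.00358), and an exon of PCBP2, a poly(C)-binding protein, from 91.7% to 86.3% (limma adjusted p 0.021). The HNRNPLL exon was also called for P95H against WT with sgGPATCH8, at 3.67% against 9.33% (limma adjusted p 0.00386). The longer form of an HNRNPU exon was at 37% with WT and 24.3% with P95H under sgGPATCH8 (limma adjusted p 0.00855).

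In the SF3B1 panel, 3 of 61 events of these further genes were called for K700E averaged over targets (4.92%, against 3.35% of all) and 1 of 61 for sgSUGP1 in K700E cells (1.64%, against 0.0944% of all). An exclusive exon of RALY was at 15% to 21% in all WT runs and 9% to 13% in all K700E runs, so runs of the 2 genotypes do not overlap (limma adjusted p 0.0293). A skipped exon of RALY was called too, 5.33 points higher with K700E averaged over targets. Both HNRNPUL1 calls concern 1 intron, which was spliced in 68% to 78% in the first runs and in 0% to 5% of 8 second runs, but in 81% and 73% of the second runs of K700E sgSUGP1. Its difference of 38.5 points for sgSUGP1 in K700E cells (limma adjusted p 0.0462) therefore lies in the second runs. Over all events, that comparison had 48 calls with averaged runs, 0 in run 1 alone and 1121 in run 2 alone. No event of the further genes was called among the 57 tested in each of the 5 U2AF1 comparisons or the 56 tested in each of the 2 in 293T.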

How the data were processed

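The deposited files give, for each event, the fraction (0 to 1, 2 decimals) of the isoform listed first, per the file headers and values. The submitters' processing notes list the tools RSEM 1.2.4, Bowtie, TopHat and TopHat2 2.0.8b and the build hg19 (GRCh37). Which step made the fractions is not given in the sources used here. Libraries were polyadenylated, paired-end and strand-specific (dUTP), per the labels' protocols. The reads behind a fraction are unknown, so no counting interval is given; low-usage and 3-nt choices may rest on few reads, and hnRNP genes have processed pseudogenes that can share reads.

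The 54 columns are 44 libraries after the runs of the SF3B1 panel were averaged. Log2 ratios of used to not used (0.01 added to each side) were fitted per panel with limma 3.58.1 (R 4.3.3), with a mean for each group (in 293T for each guide) and a trended prior variance, and checked on simulated data. A group of 1 library is assumed to vary like the others. Junction coordinates are hg19 as deposited. GENCODE 29 (GRCh38) gave names and sequences by matching intron lengths, and no coordinate was converted. The sequence of the HNRNPA1 event is not reported here.

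Named are all called events, per gene the event nearest 50% in sgRenilla libraries, known isoform choices, and the lowest p where a comparison had no call, and up to 8 events of the family list. The HNRNPD 107-nt exon and other features singled out beyond this were added after their values were seen. Members and lists were chosen with earlier results of these data known. In the U2AF1 panel, replicate numbers were taken as a possible pairing in 2 comparisons, S34F against WT with sgRenilla and sgGPATCH8 against sgRenilla in WT. There, deviations of every same-numbered pair correlated above 0.1 (0.152 to 0.402 and 0.123 to 0.357). Of the panel's 36 differently numbered pairs, 6 were above 0.1 too (highest 0.131), so these correlations do not show that the numbers pair libraries. The pairing is from the data, not the labels. The p-values given in the Results come from fits without a replicate block, and the block, run as an alternative, changed no call in this panel. Alternatives were another offset, a missing value allowed, no limits on means, untransformed fractions, each run alone, each library left out, a replicate block and, added after seeing the data, U2AF1 without replicate 1.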

Additional observations from a re-analysis of the deposited data

Results flagged for a closer look

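Directions of the sgGPATCH8 difference were opposite between panels or genotypes for 3 events, with every sgGPATCH8 library above, or every one below, all sgRenilla libraries of its group. Such separation was not confined to them. Of 61 tested events, 17 lay above and 13 below in SRSF2 P95H cells, and 1 and 12 in SRSF2 WT cells. Of 59, 6 lay above and 3 below in 293T, 1 and 2 in U2AF1 WT, and 5 and 2 in U2AF1 S34F cells. The share of all tested events that separate in this way was not computed. These counts therefore cannot be set against the background of their panels. Whether 3 events with opposite directions exceed chance was not tested. The differences between panels were not tested (within the SRSF2 panel, the test for C2 gave limma adjusted p 0.203), and the SF3B1 panel was left out because 1 control library shows no spread. HNRNPA2B1 exon 2 was 3.67 points higher with sgGPATCH8 in SRSF2 P95H cells, and its difference in 293T was −4.5 points. The C2 form of HNRNPC was 3 points higher in SRSF2 P95H cells, while the difference was −4.33 points in SRSF2 WT, −2.33 in U2AF1 WT and −7.67 in U2AF1 S34F cells. The HNRNPDL 3' UTR exon was 1.25 points higher in 293T, while the difference was −5.67 points in SRSF2 WT and −14.3 points in SRSF2 P95H cells, the only called value of the 3 events.

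In the 293T groups of 4, Dixon's test set 1 library apart in 9 of 46 sets tested. Chance flags about 1 in 20 sets of continuous values. Usage here is in whole percent, and some of the 9 sets are 3 equal values and 1 other (8%, 8%, 8% and 9%), so the 9 cannot be read against that rate. In sgGPATCH8 these were the C2 form of HNRNPC (lowest 31%), the HNRNPDL 3' UTR exon (highest 9%), the HNRNPR exclusive exons (highest 47%) and PTBP1 exon 11 (lowest 97%). In sgSUGP1 they were the 63-nt longer HNRNPA2B1 form (highest 13%), the C2 form of HNRNPC (highest 38%), the HNRNPDL coding exon (highest 99%), PTBP1 exon 11 (lowest 97%) and the shorter PTBP1 3' UTR (highest 1%).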

How the results depend on the processing

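The calls of HNRNPA1, HNRNPD, HNRNPDL and HNRNPA2B1 in the SRSF2 panel kept their direction and call under all alternatives run, and that of HNRNPC lost it on leaving out any 1 library and with the replicate block (limma adjusted p 0.0784). Without limits on group means, 4 events were called for P95H with sgRenilla and 13 for P95H with sgGPATCH8. The test of the difference then called 1. Untransformed fractions called 3 and 10 in the 2 P95H comparisons, and the cause was not tested. The 13 included HNRNPH1 events (limma adjusted p 0.0291 and 0.0317), an HNRNPR event (limma adjusted p 0.0407) and the C2 form of HNRNPC (limma adjusted p 0.0188). The main fit called none of these. Untransformed fractions called the C2 form too (limma adjusted p 0.0433). With 1 library left out, the number called was 2 for P95H with sgRenilla, 7 for P95H with sgGPATCH8, and 1 to 2 for sgGPATCH8 in P95H cells. The 2 came without P95H sgGPATCH8 replicate 3 and added an HNRNPC event. This replicate is the library with 2 labelled runs in 1 column. In the SF3B1 panel, run 2 alone called 1 event for K700E averaged over targets and 3 for sgSUGP1 in K700E cells (in HNRNPA2B1, HNRNPD and PTBP1), beside 0.572% and 2.3% of all events tested in that run; run 1 alone called 0. The counts of 0 in the U2AF1 and 293T panels stayed 0 under every alternative run.

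With the replicate block, 2, 7 and 1 events were called in the SRSF2 comparisons. Correlations of same-numbered libraries' deviations were −0.0483 to 0.0329 in the SRSF2 panel and 0.075 to 0.402 in the U2AF1 panel (13 of 18 pairs above 0.1, every pair in 3 of the 6 pairs of groups). Of the 36 differently numbered U2AF1 pairs, 6 were above 0.1. In the SRSF2 panel the libraries share only a number. The U2AF1 count with the block was 0 in all 5 comparisons. Events near 0% or 100% are limited by the 2 decimals deposited.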
